A study of Homo sapiens with 3 samples.

Results

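A set of 10 genes that p53 is known to activate, and that act outside cell cycle arrest, apoptosis, DNA repair and redox control, were followed in ribosome footprint libraries of HEK293T cells expressing wild-type (WT), G245S or R273H p53. The genes, taken by symbol from the 63241 listed, were the secreted factor GDF15, the membrane proteins PLXNB2, NINJ1 and SUSD6, the lysosomal and mitochondrial proteins DRAM1 and SPATA18, the Golgi ceramidase ACER2, the RNA-binding protein ZMAT3 and the E3 ligase components FBXO22 and TRIM22. Of these 10 genes, 9 passed the filter on low counts that left 19820 genes for testing, and TRIM22 did not.

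p53 is a transcription factor that binds DNA as a tetramer, at a site built from a pair of half-sites, and recruits the transcription machinery to nearby genes. Its best-known targets halt division or start apoptosis, but others change what a cell secretes, how it handles its membranes and lipids, and how it degrades organelles. Hotspot mutations of the DNA-binding domain, among them G245S and R273H, impair the binding of such sites.

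Ribosome profiling sequences the mRNA fragments that ribosomes shield from nuclease, so the footprint count of a gene depends on both the amount of its mRNA and the ribosomes on each copy. HEK293T cells derive from human embryonic kidney, and in all 3 groups they also carry SV40 large T antigen, which can bind p53. Each group was a line carrying a p53 construct (WT, G245S or R273H; by the study's methods introduced with a lentivirus and selected with puromycin), grown as 3 dishes, briefly exposed to cycloheximide, and digested with micrococcal nuclease before monosomes were collected. The labels name both stable and transient expression of the constructs, and the treatment label of the mutant samples names the WT construct, so groups were taken from the sample titles. The 3 dishes of a group were pooled at reverse transcription and every group was its own pool, so group and pool cannot be told apart, and the p-values measure only the spread between dishes. No cells without a p53 construct and no matched RNA libraries were analysed here. In a bulk lysate, less footprint in every cell and fewer cells with footprint cannot be told apart either.

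The 9 libraries held 18.7 to 24.6 M counts each. Levels are given as CPM, counts scaled to a common library total with TMM factors, as mean ± SD over 3 dishes. The labels call the cells epithelial, and the keratin gene KRT18 averaged 110 to 116 CPM and KRT8 33.9 to 43.4 CPM over the groups, beside VIM at 884 to 983 CPM and the neurofilament gene NEFM at 262 to 277 CPM. EPCAM averaged only 3.91 to 4.88 CPM, and KRT19 and PAX8 were at or near 0. The summed level of 12 markers of blood, endothelial, liver and muscle cells lay between 5.49 and 7.72 CPM in every library, and the T cell marker CD3E and the hemoglobin gene HBB had no count.

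The DNA around the members was read first, since these genes were listed as p53 targets. A window from 2000 bases before to 5000 bases after the start of each gene's canonical transcript (GRCh38) was searched on both strands for the p53 consensus of 2 adjoining half-sites of 10 bases each, with the 4 core C and G positions kept and up to 2 mismatches. This search was chosen after the footprint results were known. Of the 10 members, 5 had such a match, against 5.22% of 20033 protein-coding windows, and 14 of 33 other p53 targets had one. Of the 5, 1 is not shown and lies in a sequence with many copies in the genome, a kind that the share of all windows counts too. Matches of 4 members are shown to let the letters near these genes be read against the p53 consensus, each 5′ to 3′ on the strand of its gene. The 20 bases of the match, mismatched ones included, are in capitals, and 20 flanking bases on each side are in lower case.
ZMAT3: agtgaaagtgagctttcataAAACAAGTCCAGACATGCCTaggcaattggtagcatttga
SPATA18: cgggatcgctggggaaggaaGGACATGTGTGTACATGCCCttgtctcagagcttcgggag
ACER2: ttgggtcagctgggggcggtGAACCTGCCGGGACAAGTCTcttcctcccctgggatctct
GDF15: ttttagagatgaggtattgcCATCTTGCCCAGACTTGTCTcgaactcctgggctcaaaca

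The ZMAT3 match had 0 mismatches, a class that 0.0948% of all windows held. It lies at chr3:179070188-179070207, in intron 1, 1602 bases after the start of this minus-strand gene. The other 3 matches shown had 2 mismatches each. SPATA18 carried its match at chr4:52051957-52051976, 653 bases into the gene, and ACER2 at chr9:19409522-19409541, 513 bases into the gene, both in intron 1. The 20 bases of the ZMAT3, SPATA18 and ACER2 matches each occurred once in the genome. The GDF15 match at chr19:18385308-18385327 lay at base -850 from the start of the canonical transcript, inside the annotated span of the gene, and occurred 2 times. In windows without a match the fewest mismatches were 3 for TRIM22 and SUSD6, 4 for NINJ1 and FBXO22 and 5 for PLXNB2. In the shorter window of 250 bases before to 50 after the RefSeq start (GRCh38.p14), 8 members had an entry, and none held a half-site without mismatch, which 6.63% of 35116 promoters did. The letters CATG, the core of many half-sites, occurred in a promoter entry of ZMAT3, NINJ1, GDF15 and PLXNB2 and in 54.9% of all promoters. Those of NINJ1 and GDF15 lay 33 and 31 bases after the start, not before it, and another ZMAT3 entry had none. These matches describe letters only and do not show that p53 was bound there.

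Both mutants were then compared with WT p53 to ask which of these targets carried fewer footprints. In G245S cells 8 of the 9 tested members were lower than in WT cells and none was higher, while 12.1% of all tested genes were called lower and 12.6% higher. In R273H cells the same 8 genes, GDF15, PLXNB2, SUSD6, DRAM1, SPATA18, ACER2, ZMAT3 and FBXO22, were lower and none was higher, against 14.6% of all tested genes lower and 14.2% higher. These shares are the background for every count of calls against WT given below. The decreases ran from SUSD6, at 67.2% and 76.2% of WT in G245S and R273H, to SPATA18, at 10.8% and 7.7%. The ninth, NINJ1, was not called in either mutant. For each of the 8 genes every mutant dish lay below every WT dish. How often all tested genes separate in this way was not counted. GDF15 had no mutant library at the filter level of 0.5 CPM and was tested only because of its WT level, so its direction was set by the filter. Without it, 7 of 8 members were lower in each mutant, with median log2 fold changes of -0.79 in G245S and -0.745 in R273H, and the medians over all tested genes were -0.00069 and -0.0024. Both contrasts use the same WT libraries, so they are not independent of each other.

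**Figure D1:**
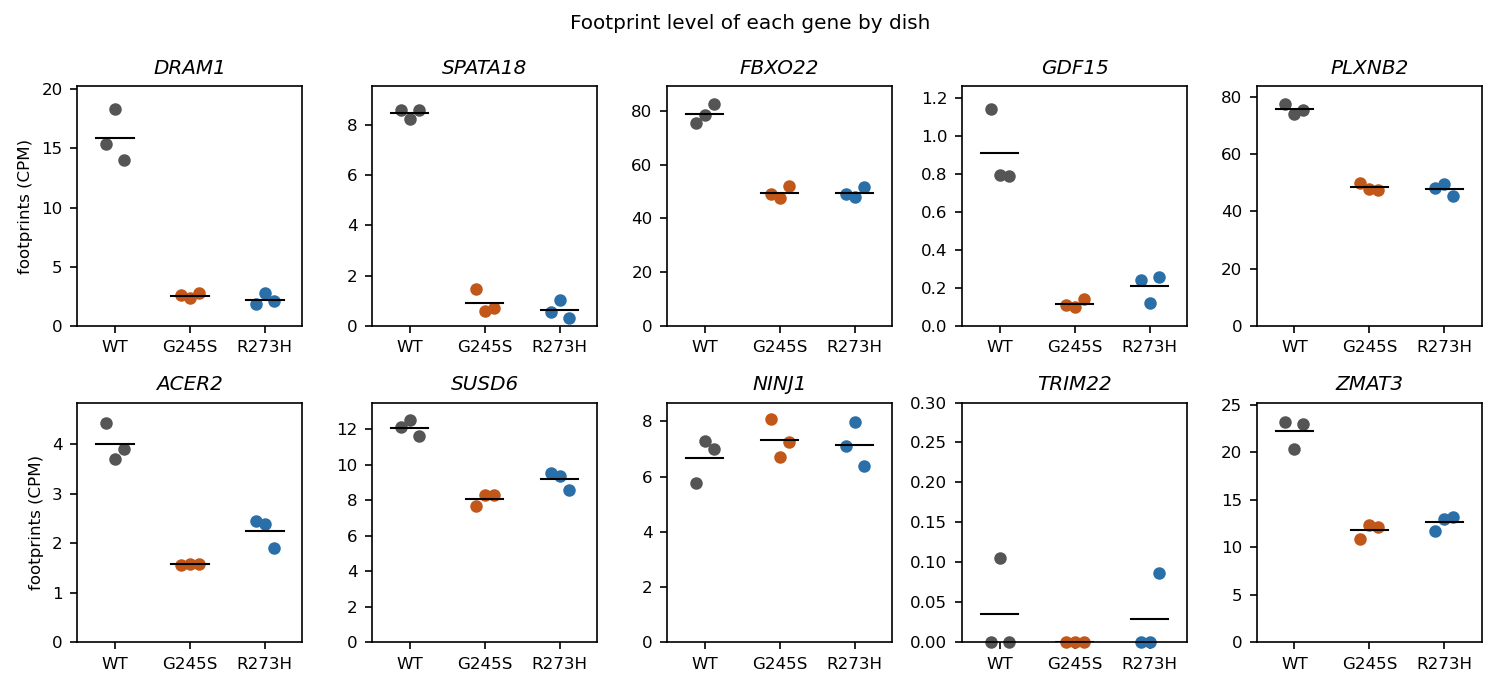
Footprint level (y axis, CPM from 0, its own scale in each panel) of each of the 10 genes in the 3 dishes of WT, G245S and R273H cells (x axis). Points are dishes and bars are means. In 8 panels all mutant points lie below all WT points, NINJ1 overlaps between the groups, and TRIM22 is at or near 0. The share of all tested genes with such a separation was not counted.

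**Figure D2:**
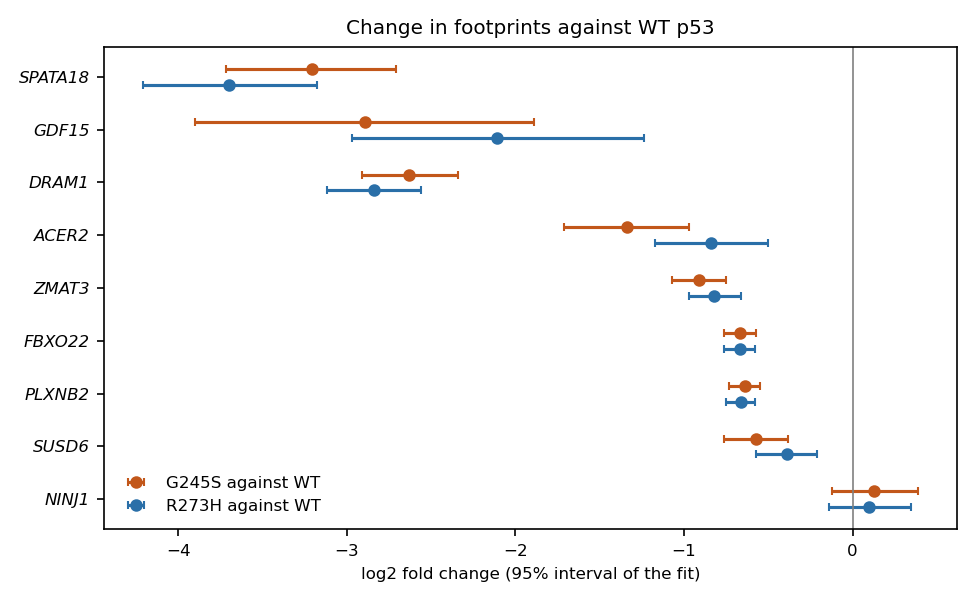
Log2 fold change of each tested gene against WT (x axis) for G245S (orange) and R273H (blue), ordered by the G245S value. Bars are 95% intervals of the fit, and those of NINJ1 span 0 while the others lie below it. GDF15 was tested only because of its WT level, so its side of 0 was set by the filter.

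GDF15, a stress-induced cytokine of the TGF-beta superfamily that signals to the brainstem through the receptor GFRAL, was the only dedicated secreted factor of the group and had few footprints. Its counts were 23.01, 15 and 15 in the WT dishes, 2, 2 and 3 in the G245S dishes and 6, 3 and 6 in the R273H dishes, or 0.909 ± 0.202, 0.117 ± 0.0205 and 0.208 ± 0.0754 CPM. All mutant dishes were low and none reached the WT range. The summed counts were 53 in WT, 7 in G245S and 15 in R273H, which put the mutants at 12.9% (4.94% to 28.4%) and 22.7% (11.9% to 40.8%) of WT after scaling, with exact Clopper-Pearson 95% intervals that cover counting error only. The fitted log2 fold changes were -2.89 (SE 0.491) and -2.11 (SE 0.421), values that depend on the prior count at such levels. No p is given for them. GDF15 (chr19:18374731-18389176, plus strand, 2 exons) has a coding length of 924 bases and hosts the microRNA gene MIR3189, which had no count.

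GDF15 is also a known target of the integrated stress response, in which the transcription factor ATF4 activates genes of amino acid supply. Of 18 genes of this response, 12 were higher and 1 lower in each mutant. Over all tested genes, 12.6% were higher and 12.1% lower in G245S, and 14.2% and 14.6% in R273H. GDF15 was tested only because of its WT level, so its direction is not set against theirs. Its link to this response was not tested. ATF4 itself rose from 104 ± 1.63 to 126 ± 1.53 CPM with G245S and to 132 ± 0.66 CPM with R273H (log2 fold changes 0.27 and 0.34, adjusted p = 1.5e-07 and 1.1e-09). The glutathione-degrading enzyme CHAC1 rose by 0.89 and 0.84 on the log2 scale, and ALDH1L2, a mitochondrial folate enzyme, by 0.67 and 0.68. NUPR1, a small stress-induced chromatin protein, rose by 1.08 and 1.07 from 0.621 CPM in WT. The gene lower in G245S was ATF3 and the one lower in R273H was DDIT4, both named after their values were seen.

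Among the membrane proteins, PLXNB2, a receptor for class 4 semaphorins that also binds angiogenin and progranulin, had the most footprints. Its WT dishes held 77.5, 74.1 and 75.4 CPM, its G245S dishes 50, 48.0 and 47.6 CPM and its R273H dishes 48.1, 49.5 and 45.5 CPM. The dishes of each group lay within a few CPM of each other, far from the other side of the comparison. PLXNB2 fell to 64.1% of WT in G245S (log2 fold change -0.64, SE 0.0427, adjusted p = 1.9e-12) and to 63.1% in R273H (-0.66, SE 0.0416, adjusted p = 4.3e-13). It lies on the minus strand at chr22:50274979-50307646 with 37 exons and a coding length of 5514 bases. Its ligands and effectors showed smaller changes: G245S had 2 lower and 1 higher of 15 such genes, and R273H had 1 lower. GRN, which encodes progranulin, was the gene lower in both (log2 fold changes -0.15 and -0.16).

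SUSD6 is a single-pass membrane protein that, with TMEM127 and the ligase WWP2, promotes the turnover of MHC class I. It was at 12.1, 12.5 and 11.6 CPM in WT, 7.7, 8.29 and 8.27 CPM in G245S and 9.56, 9.38 and 8.58 CPM in R273H. The 3 groups did not overlap, with R273H between the others. SUSD6 fell to 67.2% of WT in G245S (log2 fold change -0.57, SE 0.0931, adjusted p = 3e-05) and to 76.2% in R273H (-0.39, SE 0.0882, adjusted p = 0.0012). When the test asked for a change beyond 1.2-fold, R273H no longer passed (adjusted p = 0.29). SUSD6 spans chr14:69611596-69715144 on the plus strand, with 6 exons and 909 coding bases. Among 10 genes of class I presentation, G245S had 1 lower and 1 higher, and R273H had 5 lower and 1 higher. The antigen transporter subunit TAP2 was the higher gene in both mutants (0.3 and 0.27), and HLA-B was lower in both (-0.14 and -0.25). TMEM127 was lower in R273H (-0.27, adjusted p = 0.0091) and had an adjusted p of 0.05 without being called in G245S, and WWP2 was not called (-0.1 and -0.11).

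NINJ1, which assembles in the plasma membrane and breaks it open during lytic cell death, was the tested member without a call. Its level was 5.76, 7.29 and 7.02 CPM in WT, 8.08, 6.71 and 7.24 CPM in G245S and 7.12, 7.97 and 6.38 CPM in R273H. The dishes of the 3 groups overlapped throughout. The log2 differences from WT were 0.13 in G245S (95% interval -0.12 to 0.39, adjusted p = 0.47) and 0.1 in R273H (-0.14 to 0.35, adjusted p = 0.58), so a decrease as large as that of SUSD6 lay outside both intervals. NINJ1 lies at chr9:93121496-93134251 on the minus strand, with 4 exons and 456 coding bases. Of 12 genes of membrane rupture and its triggers only 5 were tested, of which 2 were lower in G245S and 1 in R273H. The kinase gene RIPK1 was lower in both (-0.21 and -0.16), while the pore-forming GSDMD and the paralog NINJ2 stayed below 0.05 CPM on average in every group.

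DRAM1, a lysosomal membrane protein that promotes autophagy downstream of p53, was among the most reduced members. WT dishes held 15.4, 18.3 and 14.0 CPM, G245S dishes 2.6, 2.34 and 2.76 CPM and R273H dishes 1.83, 2.75 and 2.07 CPM. The mutant groups overlapped each other and stayed far below WT. DRAM1 fell to 16.2% of WT in G245S (log2 fold change -2.63, SE 0.139, adjusted p = 1.3e-14) and to 14.0% in R273H (-2.84, SE 0.137, adjusted p = 1.4e-15), ranks 35 and 25 of 19820 genes ordered from the most negative change. The gene spans chr12:101877580-102012130 on the plus strand, with 7 exons and 714 coding bases, and the 4 noncoding genes and pseudogenes inside it had almost no count.

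Other autophagy genes had calls in both directions. Among 40 tested genes of the autophagy core and the lysosome, G245S had 5 lower and 3 higher, R273H had 10 lower and 6 higher, and the list medians were -0.0062 and -0.033. The shares over all tested genes were 12.1% lower and 12.6% higher in G245S, and 14.6% and 14.2% in R273H. The ATG8 family genes GABARAPL2 (log2 fold changes -0.26 and -0.22) and GABARAP (-0.18 and -0.26) and the cargo receptor gene NBR1 (-0.22 and -0.22) were lower in both mutants. ATG9A, a lipid scramblase of early autophagosomes, was higher (0.33 and 0.21), as was PIK3R4, a subunit of the class III PI3-kinase (0.2 and 0.29).

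SPATA18, also named Mieap, takes part in the removal of damaged mitochondria and showed the largest fold decrease of the members in both mutants. Its WT dishes were at 8.59, 8.24 and 8.6 CPM, its G245S dishes at 1.46, 0.61 and 0.7 CPM and its R273H dishes at 0.569, 1.05 and 0.302 CPM. The WT dishes were close together, whereas the mutant dishes, with few counts, differed by over 2-fold within each group. SPATA18 fell to 10.8% of WT in G245S (log2 fold change -3.21, SE 0.243, adjusted p = 2e-09) and to 7.7% in R273H (-3.7, SE 0.247, adjusted p = 2.6e-10), ranks 23 and 12 of 19820. It has 13 exons and 1614 coding bases at chr4:52051304-52097299 on the plus strand.

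ACER2 is the Golgi alkaline ceramidase, which splits ceramide into sphingosine and a fatty acid. Its level was 4.42, 3.7 and 3.9 CPM in WT, 1.57, 1.58 and 1.59 CPM in G245S and 2.44, 2.39 and 1.9 CPM in R273H. The groups did not overlap, and G245S was the lowest. ACER2 fell to 39.4% of WT in G245S (log2 fold change -1.34, SE 0.181, adjusted p = 1.9e-06) and to 56.0% in R273H (-0.84, SE 0.164, adjusted p = 0.00028). It spans chr9:19409009-19452505 on the plus strand, with 6 exons and 825 coding bases. A processed pseudogene, ACER2P1, could share its reads, so its exact level is uncertain.

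Other genes of sphingolipid metabolism had more calls higher than lower, in contrast to ACER2. Among 25 tested genes, G245S had 11 higher and 2 lower, R273H had 10 higher and 1 lower, and their summed level was 1070 to 1090 CPM in WT dishes, 1170 to 1190 CPM in G245S dishes and about 1160 CPM in R273H dishes. SPHK1, which phosphorylates sphingosine, the product of ceramidases, rose from 9.4 ± 0.923 CPM to 16.7 ± 0.913 in G245S (log2 fold change 0.83, adjusted p = 1.4e-07) and 15.6 ± 1.79 in R273H (0.73, adjusted p = 6.6e-07). The glucosylceramide synthase gene UGCG rose by 0.33 and 0.36 on the log2 scale and the ceramide synthase gene CERS1 by 0.44 and 0.22. The sphingomyelin synthase gene SGMS1 fell by 0.3 and 0.49.

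ZMAT3, a zinc finger protein that binds RNA and affects splicing and mRNA stability, was at 23.2, 20.4 and 23.0 CPM in WT, 10.9, 12.4 and 12.1 CPM in G245S and 11.7, 13 and 13.2 CPM in R273H. The mutant dishes overlapped and all lay well under the lowest WT dish. ZMAT3 fell to 53.3% of WT in G245S (log2 fold change -0.91, SE 0.0794, adjusted p = 6.2e-10) and to 56.8% in R273H (-0.82, SE 0.0758, adjusted p = 2e-09). It has 6 exons and 867 coding bases at chr3:178960121-179072215 on the minus strand. The member with the match of 0 mismatches was not the one with the largest fold decrease. A relation between matches and fold changes was not tested.

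FBXO22 is the substrate receptor of an SCF ubiquitin ligase whose known substrates include the demethylase KDM4A and the repressor BACH1. It was at 75.3, 78.6 and 82.4 CPM in WT, 48.9, 47.4 and 52.2 CPM in G245S and 48.9, 48.0 and 51.8 CPM in R273H. The mutant groups were nearly superimposed below WT. FBXO22 fell to 63.0% of WT in G245S (log2 fold change -0.67, SE 0.0457, adjusted p = 3.7e-12) and to 62.9% in R273H (-0.67, SE 0.0444, adjusted p = 1.8e-12). It spans chr15:75903876-75942511 on the plus strand, with 7 exons and 1209 coding bases, and overlaps NRG4 on the other strand, which was at 4.26 to 5.29 CPM and not called. Among 8 partners and substrates, G245S had 1 lower, and R273H had 2 lower and 1 higher. NEDD8, the modifier that activates cullins, was lower in both (-0.2 and -0.19), the adaptor SKP1 was lower (-0.11) and the scaffold CUL1 higher (0.11) in R273H. KDM4A and BACH1 were not called.

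TRIM22, an interferon-inducible antiviral E3 ligase, was hardly detected. It had 2.029 counts in the second WT dish, 2.01 counts in the third R273H dish and 0 counts in the other 7 libraries, all below a floor of 3 counts per library (0.121 to 0.163 CPM), so no fold was computed. It spans chr11:5689610-5737089 on the plus strand, with 8 exons and 1494 coding bases. TRIM5, which overlaps it on the other strand, was detected at 14.2 CPM in WT and was lower in both mutants (-0.28, adjusted p = 0.019, and -0.31, adjusted p = 0.0062).

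Levels of different genes were set side by side only per kilobase of coding length. In WT cells FBXO22 led with 65.1 ± 2.92 CPM per kb, followed by ZMAT3 at 25.6 ± 1.76 and DRAM1 at 22.3 ± 3.06, whose dishes overlapped. NINJ1 (14.7 ± 1.79), PLXNB2 (13.7 ± 0.312) and SUSD6 (13.3 ± 0.532) came next and overlapped one another, then SPATA18 (5.25 ± 0.126) and ACER2 (4.86 ± 0.449), which overlapped too, and GDF15 at 0.983 ± 0.218. In the mutants FBXO22 still led at 41.0 CPM per kb in both. DRAM1 went from the third place to the sixth, at 3.59 ± 0.295 CPM per kb in G245S and 3.1 ± 0.669 in R273H, and NINJ1 stood in the second place at 16.1 ± 1.51 and 15.7 ± 1.74, although in R273H its dishes overlapped those of ZMAT3. SPATA18 dropped below ACER2 in both mutants, at 0.573 ± 0.29 and 0.397 ± 0.235 against 1.91 ± 0.0101 and 2.72 ± 0.362 CPM per kb. The summed level of the 10 members was 223 to 227 CPM in WT dishes, 127 to 133 CPM in G245S dishes and 130 to 134 CPM in R273H dishes, and FBXO22 and PLXNB2 made up most of it.

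G245S was compared directly with R273H to ask whether the mutants differed. Of the 9 tested members none was called in edgeR's quasi-likelihood test in either direction, against 0.732% of all tested genes lower and 1.86% higher in G245S. DESeq2 gave an adjusted p to only 6329 genes here, among the members to PLXNB2 and FBXO22 alone, and called neither. The other tested members could not be called by it. In the edgeR test 1 member had an unadjusted p under 0.05, as had 3120 of all 19820 tested genes. That member was ACER2, lower in G245S by a log2 difference of -0.51 (95% interval -0.9 to -0.11, adjusted p = 0.17), with no overlap between the 3 dishes of each mutant. SUSD6 was likewise lower in all G245S dishes, with a difference of -0.18 (-0.37 to 0.011, adjusted p = 0.35). How often all tested genes separate between the mutants in this way was not counted. The intervals were narrow for FBXO22 (0.0015, -0.095 to 0.098) and PLXNB2 (0.024, -0.067 to 0.11), wider for ZMAT3 (-0.093, -0.27 to 0.079), NINJ1 (0.033, -0.21 to 0.27) and DRAM1 (0.21, -0.17 to 0.59), and widest for SPATA18 (0.49, -0.29 to 1.26) and GDF15 (-0.79, -2.05 to 0.47). A more than 2-fold difference between the mutants thus lay inside the intervals of SPATA18 and GDF15 and outside those of the other 7.

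Targets of p53 in arrest, feedback, apoptosis, repair and redox control were read beside the members. Of 33 such genes 32 were tested, and 29 were lower and none higher in each mutant, and the median log2 change was -1.2 for both. The largest decreases were those of the quinone oxidoreductase TP53I3 (-4.03 and -4.19), the p53 ligase MDM2 (-3.48 and -3.49), PHLDA3, which restrains Akt (-3.27 and -3.61), and the mitochondrial ferredoxin reductase FDXR (-3.04 and -3.3). DRAM1 and SPATA18 lay below that median in each mutant and PLXNB2, FBXO22, SUSD6 and ZMAT3 above it. ACER2 was below it in G245S and above it in R273H. GDF15, tested only because of its WT level, is not placed against it.

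Genes of the same families that were not listed as p53 targets served as a further reading. Of 37 relatives 28 were tested. G245S had 5 lower and 7 higher of these and R273H had 5 lower and 9 higher, with medians of 0.046 and 0.12. The largest decrease was that of PLXNB3, a plexin close to PLXNB2, with counts summing to 55 in WT, 5 in G245S and 4 in R273H. That put it at 8.86% (2.77% to 22.0%) and 5.82% (1.53% to 15.8%) of WT by exact counting intervals. Like GDF15, PLXNB3 passed the filter only through WT, and without it 4 relatives were lower in each mutant. The third class B plexin, PLXNB1, was not called, and PLXND1 was higher at 8.91 ± 1.01 and 8.37 ± 0.0385 CPM against 5.09 ± 1.15 in WT (0.8 and 0.71). The relatives of ZMAT3 and TRIM22 included genes lower in both mutants: ZMAT2 (-0.19 and -0.24), ZMAT5 (-0.19 and -0.22), TRIM5, given above, and TRIM21 (-0.39 and -0.4). The tested paralogs of DRAM1 and ACER2 were higher. DRAM2 rose from 34.3 ± 0.595 CPM to 40.7 ± 0.758 and 40.2 ± 2.2 (adjusted p = 0.00063 and 0.00096), and ACER3 from 12.2 ± 0.786 CPM to 14.6 ± 1.57 and 15.3 ± 1.26 (adjusted p = 0.037 and 0.0058). PLXNB1, PLXND1, ZMAT2, ZMAT5, DRAM2 and ACER3 were named after their values were seen. The growth factor gene GDF10, which reached the filter level in only 1 WT dish, had the largest increase, from 0.345 CPM to 1.01 and 0.881 CPM (1.53 and 1.34, adjusted p = 0.0043 and 0.0099).

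**Figure D3:**
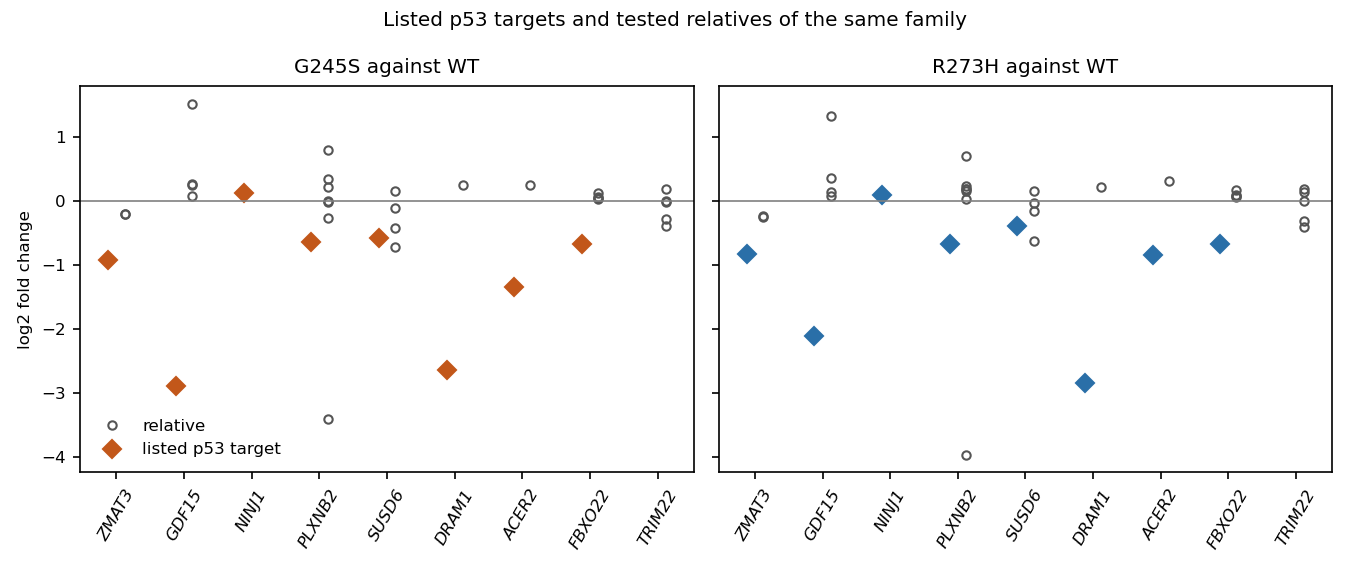
Log2 fold change against WT (y axis) of each tested member (diamonds) and of its tested relatives (open circles), by family (x axis), for G245S on the left and R273H on the right. TRIM22 and the relatives of NINJ1 were not tested, and SPATA18 has no listed relative. Most relatives lie near 0, and 1 plexin, PLXNB3, lies below every member shown. PLXNB3 and GDF15 passed the filter only through WT, which set their direction.

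The genes next to the members on the chromosome were read in the same way, taking the nearest tested gene on each side of each of the 10 members. Among these 20 neighbours, G245S had 4 lower and 1 higher, R273H had 4 lower and 2 higher, and the rest were not called. Of all tested genes, 12.1% were lower and 12.6% higher in G245S, and 14.6% and 14.2% in R273H. The 4 lower genes were the same in both mutants. MAPK11, a p38 kinase gene 4.21 kb from PLXNB2, went from 2.14 ± 0.523 CPM to 0.967 ± 0.18 and 0.937 ± 0.403 (-1.13, adjusted p = 0.0039, and -1.19, adjusted p = 0.0017). WASHC3, which encodes a subunit of an endosomal actin-regulating complex and lies 0.71 kb from DRAM1, went from 21.1 ± 0.511 CPM to 17.1 ± 0.871 and 15.8 ± 1.0 (-0.3, adjusted p = 0.0019, and -0.42, adjusted p = 3.2e-05). The other two were the antisense gene KCNMB2-AS1, 22.8 kb from ZMAT3 (-0.54 and -0.73), and the sarcoglycan gene SGCB, 13 kb from SPATA18 (-0.31 and -0.22). USP46, on the other side of SPATA18, was higher in both mutants (0.2 and 0.23), and the pseudogene HSPE1P4 beside DRAM1 was higher in R273H (0.31). For DRAM1 and SPATA18 the fold decrease of the member exceeded that of its neighbours severalfold, whereas the fitted fold decrease of MAPK11 was larger than that of PLXNB2.

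**Figure D4:**
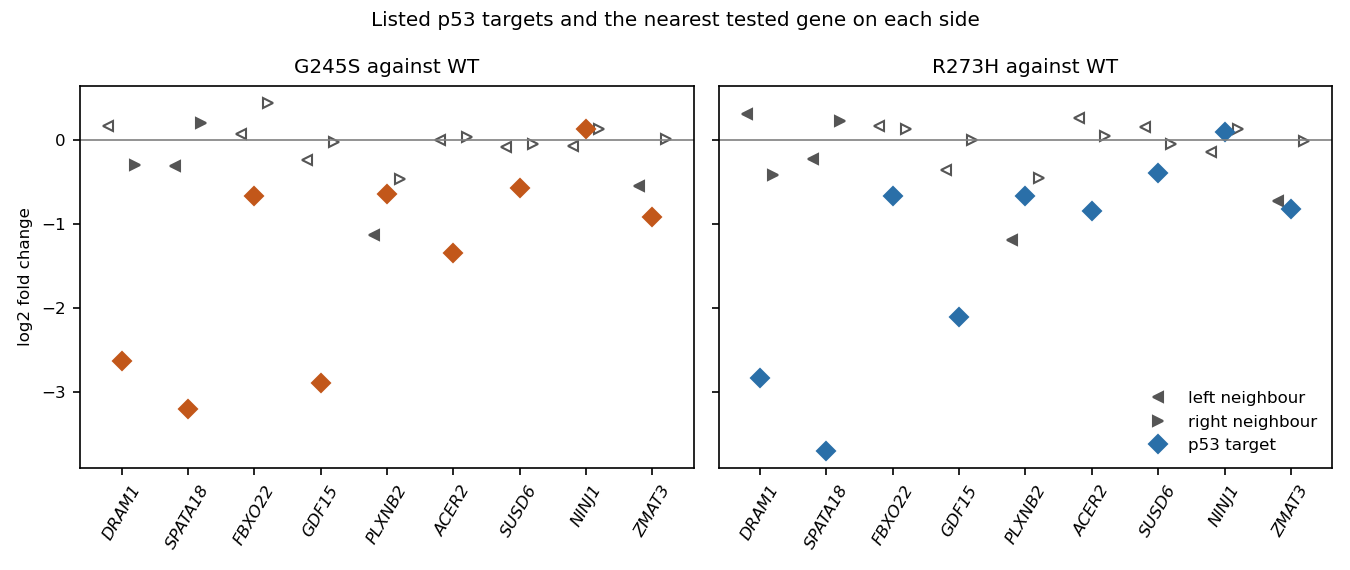
Log2 fold change against WT (y axis) of 9 members (diamonds) and of the nearest tested gene on the left and right (triangles, filled where called) for G245S and R273H. The neighbours of DRAM1, SPATA18 and GDF15 lie near 0 while these members lie below -2, and the left neighbours of PLXNB2 and ZMAT3 are lower with them. The direction of GDF15 was set by the filter.

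For each called member the gene with the most similar profile over the 9 libraries was sought among 12653 genes averaging 100 counts or more, as the smallest root mean square difference of centred log2 CPM (pseudocount 0.1). The profile of ZMAT3 was nearest to that of PPM1D, a phosphatase gene among the p53 targets above (0.075), and that of ACER2 to GADD45A, another of them (0.16). PLXNB2 was nearest to CEP170B (0.043), FBXO22 to CCDC90B (0.048), SUSD6 to GXYLT1 (0.051), DRAM1 to TYMSOS (0.2) and GDF15 to the glycogen branching enzyme gene GBE1 (0.25). The pseudocount is close to the mean level of GDF15 in G245S (0.117 CPM), so the likeness given for GDF15 depends on it. The gene nearest to SPATA18 was ENSG00000288873 (0.33), which went from 14.6 ± 0.599 CPM to 1.57 ± 0.283 and 1.33 ± 0.377. The libraries are shared by all these values, and 6 of the 9 come from mutant cells, so a likeness describes these libraries only.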

How the data were processed

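The authors trimmed reads (Trim Galore, Cutadapt), handled molecular barcodes where present (UMI-tools), removed rRNA reads (SortMeRNA) and aligned to GRCh38 (STAR). The deposited table holds expected counts per gene, estimated counts that need not be whole, without scaling: 61.5% to 63.7% of nonzero values per library were not whole, so reads of near-identical genes were shared out. The counting tool, annotation release and strand handling are not given in the sources used here. Of overlapping genes on opposite strands, reads may therefore not be told apart.

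Rounded counts went into edgeR 4.0.16 under R 4.3.3 (TMM, filterByExpr, robust glmQLFit, two-sided glmQLFTest), with 1 model over the 9 libraries, no covariate besides group, and 6 residual degrees of freedom. Calls needed an adjusted p (Benjamini-Hochberg, 19820 genes) under 0.05. No spike-in was used here, and a shift shared by every gene could not be detected. Replicate dishes differed by more than counting noise. Alternatives were DESeq2 1.42.0, other scaling factors, no filter, a minimum fold of 1.2, a block on dish number, coding length offsets, pairs of groups alone and leaving out each dish. Coordinates and coding lengths come from GENCODE v44 and promoters from RefSeq (GRCh38.p14), which had entries for 8 members.

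Named genes were the members, their neighbours and overlapping genes, up to 4 genes per list with the largest changes among those called in both mutants, and the nearest profiles. Others are marked where named. Of the matches to the p53 consensus, 1 is not reported here. Members and lists were chosen with earlier results of these data known.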

Additional observations from a re-analysis of the deposited data

How the results depend on the processing

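Of 304 alternative values of the tested members against WT, 303 kept their direction and their side of the threshold. The exception was SUSD6 in R273H with a minimum fold of 1.2 (adjusted p = 0.29). DESeq2 gave GDF15 no adjusted p, so it called 7 members in each mutant in place of 8. The count of all genes called in G245S against WT, 4900, was 3079 with DESeq2 and 547 with a minimum fold of 1.2, and in R273H, 5707, it was 3573 and 693. With upper-quartile factors the split of higher to lower calls was 2793 to 2182 for G245S and 3144 to 2601 for R273H, against 2498 to 2402 and 2807 to 2900, and the 8 members stayed lower. Between the mutants 513 genes were called, 3 with a minimum fold of 1.2, 1262 with dish number as a replicate block, and 162 to 712 when a dish was left out: 162 without G245S dish 1, 204 without G245S dish 2, and 222, 233 and 295 without R273H dish 1, 2 and 3. The difference between the mutants for FBXO22, 0.0015 and not called, changed sign to -0.001852 with RLE factors, -0.001997 with upper-quartile factors, -0.005366 with no filter, -0.001424 with DESeq2, -0.00109 with the replicate block, -0.00776 with coding length offsets and -8.078e-05 with only 6 libraries. Without single dishes it ran from -0.0378 to 0.0338, that of NINJ1 from -0.0404 to 0.118 and that of PLXNB2 from -0.00707 to 0.051, none called. The cause of these shifts was not tested. Dishes of the same number correlated at 0.042 to 0.229 in their deviations from group means, and dishes of different numbers at -0.184 to 0.0583. The main model held no term for dish number, and what dishes of a number have in common was not tested. Every library had its highest correlation with a dish of its own number in another group, for R273H dish 2 that of G245S (0.0894). Against WT alone, R273H dish 2 correlated more with dish 1 (0.0583) than with dish 2 (0.0421). The block left the same number of members called (8, 8 and 0). At 3 counts per library or fewer, TRIM22 could not be compared, and the fold of GDF15 rests on 7 and 15 counts.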

Other observations

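The genes around SPATA18 and TRIM22 in function were read as lists too. Among 11 genes of mitochondrial removal and its regulation, G245S had 4 lower and 3 higher, and R273H had 5 lower and 4 higher. OPTN, an autophagy receptor for ubiquitin-tagged mitochondria, was lower in both mutants at 14.7 ± 0.493 CPM in G245S and 16 ± 0.536 in R273H against 22.5 ± 1.44 in WT (log2 fold changes -0.61 and -0.49, adjusted p = 1.3e-07 and 2.3e-06 in edgeR). BNIP3L, a receptor in the outer mitochondrial membrane, was lower at 28.6 ± 1.99 and 29.5 ± 0.0223 CPM against 38.4 ± 0.816 (-0.42 and -0.38). The outer membrane channel gene VDAC2 was higher at 345 ± 2.13 and 341 ± 9.24 CPM against 308 ± 6.4 (0.16 and 0.15).

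Among 18 tested interferon-response genes, G245S had 4 lower and 3 higher and R273H had 3 lower and 3 higher, with medians of -0.25 and -0.15. OAS3, an enzyme that activates RNase L, fell from 6.57 ± 0.237 CPM to 3.94 ± 1.07 and 3.49 ± 0.33 (-0.74 and -0.91), and the transcription factor gene IRF1 from 13.8 ± 0.654 CPM to 10.3 ± 0.0902 and 10.3 ± 0.667 (-0.42 in both). IFI27 was higher in both mutants (1.46 and 1.89) from 0.155 CPM in WT, a level near the floor of 3 counts, and passed the filter only through mutant libraries. Without IFI27, 2 of these genes were higher in each mutant, and the medians were -0.25 in G245S and -0.17 in R273H.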
